A study of Mus musculus with 6 samples.

Results

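Blood and lymphatic vessels of the mammary gland were followed through 42 genes of endothelial identity, vascular signalling and angiogenic growth factors. They were chosen by name with earlier results of these data known: 31 genes of blood endothelium, 4 of lymphatic endothelium and 7 angiogenic factors. Each of the 42 was found among the 18193 genes that the array names by a single symbol. Where a gene had several probe sets, the brightest on average stands for it. RNA came from mammary glands of virgin female mice, 4 months old and on the FVB/N background. There were 3 wild-type (WT) glands and 3 Caveolin-3 knockout (Cav-3KO) glands, none of them treated, with 1 Affymetrix array each. The sources used here do not say whether each gland came from its own mouse, which gland was taken or whether its lymph node was removed, so p-values measure the spread between these samples. By its title, the study asked how this loss bears on a milk-producing environment in the gland. The labels name the missing gene but no cell type for the loss. Its product, caveolin-3, coats caveolae in muscle cells, whereas endothelial caveolae are built mainly from caveolin-1.

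Endothelial cells line all vessels and share a set of junction proteins and ETS and SOX transcription factors. They grow and survive on signals from neighbouring cells: vascular endothelial growth factors (VEGFs) act on the receptors encoded by Flt1, Kdr and Flt4, angiopoietins act on TIE2 (Tek), apelin acts on its receptor Aplnr, and adrenomedullin acts on the pair made by Calcrl and Ramp2. VEGF-C and VEGF-D act on the lymphatic receptor gene product of Flt4. In the mammary gland the capillary bed surrounds both the fat cells and the epithelial ducts, and it expands in pregnancy with the alveoli.

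Array medians were 5.77 to 5.80, and correlations between arrays were 0.990 to 0.995 within a genotype and 0.977 to 0.987 between genotypes. Array weights estimated by limma ran from 0.549 for knockout 2 to 1.63 for wild-type 1, and results that knockout 2 decides are given with and without it. Cav3 itself did not check the genotypes: its probe set read 4.79, 5.02 and 4.74 in wild type and 4.76, 4.83 and 4.72 in knockout (−0.08 ± 0.10, adjusted p = 0.679), at percentile 25.5 of all genes by mean level. The part of the gene that this probe set reads, relative to the deletion, is not known here. Tissue markers of mammary gland were present on all arrays, with Krt8 at 11.41 to 12.70 and Csn3 at 12.01 to 13.83.

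Values are log2 intensities, and every difference below is knockout minus wild type with its standard error (SE). In the knockout, 9 of the 42 genes fell and 0 rose at an adjusted p under 0.05, by limma with Benjamini-Hochberg adjustment over all probe sets. The genes that fell were the endothelial nitric oxide synthase gene Nos3, the receptor genes Kdr, Tek and Ramp2, the surface sialomucin gene Cd34, the lymphatic hyaluronan receptor gene Lyve1, and the growth factor genes Vegfa, Vegfb and Vegfd. On the probe sets used, falls ranged from 0.45 for Tek to 0.96 for Lyve1 on the log2 scale, 1.37-fold to 1.95-fold. That is 21.4% of the members, where 8.51% of all genes were lower by the same rule and 7.65% were higher. Because the members were chosen with earlier results known, these shares were not tested against each other. At an unadjusted p under 0.05, 16 members were lower and 4 higher, where 3144 and 2963 of all 18193 genes were. The median difference was −0.09 over the members and −0.01 over all genes. All 3 knockout arrays lay below all 3 wild-type arrays for 13 of the 42 members, where 19.8% of all genes did so, and above them for 4, where 18.5% of all genes did. In a whole gland, fewer endothelial cells, less RNA per cell and a changed share or output of other cells cannot be told apart.

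**Figure D1:**
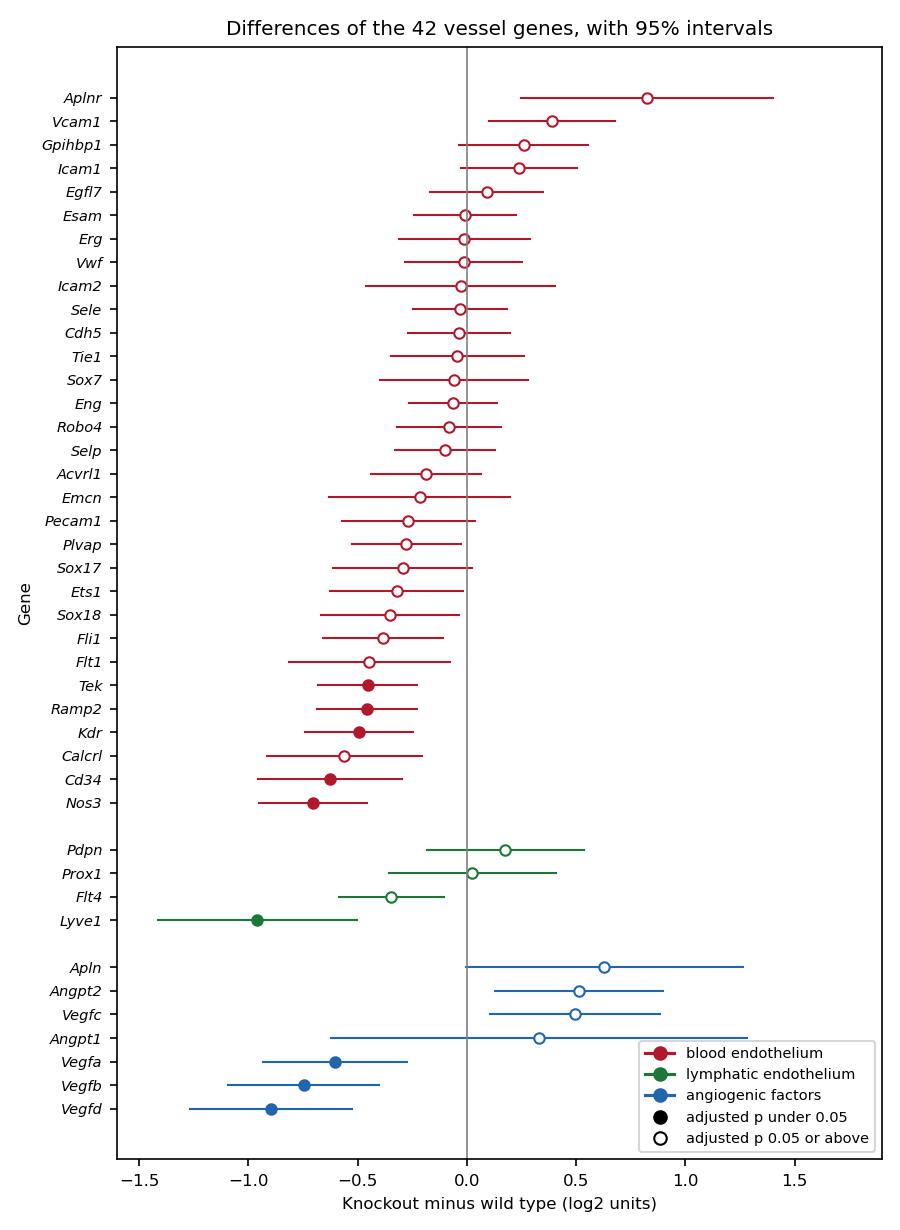
Difference of each of the 42 genes between knockout and wild type in log2 units (horizontal axis), with 95% intervals from limma as lines, for blood endothelium, lymphatic endothelium and angiogenic factors. Filled points mark the 9 genes with an adjusted p under 0.05, which all lie to the left of 0, while Cdh5, Esam, Erg and Vwf sit close to 0.

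The promoters of called genes are printed for the members with the smallest p among blood endothelial genes and among angiogenic factors that the RefSeq promoter table holds. It gives 250 bases before and 50 after a start site on GRCm38.p6, and it holds 22 of the 42 members. Nos3, Ramp2 and Lyve1 are named only. Capitals mark CAGGAA or CCGGAA on either strand, 2 forms of the ETS factor core, so TTCCTG and TTCCGG are the same letters read on the other strand. Tek and Kdr carry such letters and Vegfb and Vegfd do not, which follows no line between receptors and ligands: Vegfa, Vegfc and Apln have 1 match each, and Flt1 and Flt4 have 0.
Tek (chr4:94739039-94739338, plus strand): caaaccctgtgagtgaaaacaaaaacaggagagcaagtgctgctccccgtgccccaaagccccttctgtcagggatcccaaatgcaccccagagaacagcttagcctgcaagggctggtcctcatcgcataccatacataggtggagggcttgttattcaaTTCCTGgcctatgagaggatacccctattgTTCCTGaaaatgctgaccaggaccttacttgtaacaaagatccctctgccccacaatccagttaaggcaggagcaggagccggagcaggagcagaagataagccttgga
Kdr (chr5:75978406-75978705, minus strand): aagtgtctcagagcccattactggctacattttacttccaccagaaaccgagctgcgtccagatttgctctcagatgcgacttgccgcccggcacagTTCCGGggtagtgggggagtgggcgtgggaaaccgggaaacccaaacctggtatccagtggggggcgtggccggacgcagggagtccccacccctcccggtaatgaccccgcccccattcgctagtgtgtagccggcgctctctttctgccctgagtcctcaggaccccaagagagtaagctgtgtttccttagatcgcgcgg
Vegfd (chrX:164373272-164373571, plus strand): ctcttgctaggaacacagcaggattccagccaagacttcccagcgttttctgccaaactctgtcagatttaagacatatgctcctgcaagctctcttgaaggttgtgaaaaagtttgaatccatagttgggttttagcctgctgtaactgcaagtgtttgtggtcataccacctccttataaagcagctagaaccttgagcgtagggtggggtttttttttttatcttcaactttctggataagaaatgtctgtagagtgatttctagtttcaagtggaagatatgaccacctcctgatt
Vegfb (chr19:6987602-6987901, minus strand): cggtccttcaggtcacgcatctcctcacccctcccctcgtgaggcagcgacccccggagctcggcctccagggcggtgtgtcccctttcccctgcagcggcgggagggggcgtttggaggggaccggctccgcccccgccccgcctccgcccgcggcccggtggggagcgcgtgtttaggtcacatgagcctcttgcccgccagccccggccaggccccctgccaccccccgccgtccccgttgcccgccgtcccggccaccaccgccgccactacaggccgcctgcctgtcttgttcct
At least 1 match was present in 41.4% of the 27025 promoters of that length, in 14 of the 22 members held and in 4 of the 6 called members held. These forms were chosen with the results known, and a match in such a window is a description of its letters.

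Of 5 markers of blood endothelium, Pecam1, Cdh5, Kdr, Tek and Tie1, the receptor genes Kdr and Tek fell. All 5 had negative differences, with a median of −0.27, but Cdh5 and Tie1 lay near 0 and turned positive with array weights. The mean of the 5 was 8.29 to 8.47 on wild-type arrays and 8.06 to 8.21 on knockout arrays. Of the 8 junction and surface genes 1 fell and 0 rose, with a median of −0.06. Cdh5, which encodes VE-cadherin of the endothelial junction, read 7.01, 7.29 and 7.14 on the wild-type arrays and 7.09, 7.05 and 7.18 on the knockout arrays. Its 2 groups overlapped, and the difference was −0.04 ± 0.10 (SE, 95% interval −0.27 to 0.20). A second, dim Cdh5 probe set, at 3.87 to 4.56, gave 0.35 ± 0.13 without overlap (adjusted p = 0.116). Vwf, the gene of the clotting protein von Willebrand factor, read 9.47, 9.33 and 9.37 in wild type and 9.57, 9.38 and 9.18 in knockout. The difference of −0.01 ± 0.12 had an interval of −0.28 to 0.25, and the groups overlapped. Pecam1, the platelet and endothelial adhesion molecule, read 7.55, 7.68 and 7.81 against 7.56, 7.16 and 7.51. Knockout 2 was the lowest array for Pecam1, and the difference of −0.27 ± 0.13 did not pass (adjusted p = 0.237). The junction gene Esam gave −0.01 ± 0.10 (0.0017 with median centring), the adhesion gene Icam2 −0.03 ± 0.19, the guidance receptor gene Robo4 −0.08 ± 0.10 and the secreted endothelial factor gene Egfl7 0.09 ± 0.11. Emcn, a sialomucin of capillaries and veins, gave −0.22 ± 0.18. Vwf and these 7 junction and surface genes did not pass, and the intervals of Cdh5, Vwf and Esam (−0.24 to 0.23) exclude a difference as large as that of Nos3.

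Cd34 was the exception among the 8 junction and surface genes. It is carried by endothelium and also by stromal progenitors of fat. Wild-type values were 10.19, 10.13 and 10.06, and knockout values were 9.74, 9.19 and 9.57, with knockout 2 the lowest. It fell by 0.63 ± 0.14, 1.54-fold (adjusted p = 0.0283), and the groups did not overlap.

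Among 9 receptor and coreceptor genes, 3 fell and 0 rose, with a median difference of −0.45. Kdr, the gene of VEGF receptor-2 and the main growth receptor of blood endothelium, read 10.53, 10.82 and 10.67 in wild type against 10.06, 10.24 and 10.24 in knockout. Every knockout array was below every wild-type array, and Kdr fell by 0.49 ± 0.11, 1.41-fold (adjusted p = 0.0237). Flt1, which encodes VEGF receptor-1, gave −0.45 ± 0.16 (adjusted p = 0.112, and 0.0485 without knockout 2 but up to 0.299 with another array left out). Its groups overlapped in 1 place, with knockout 2 at 8.91 above wild-type 1 at 8.86. The other 3 Flt1 probe sets gave −0.33 to −0.63, all short of the threshold. Tek, whose product TIE2 binds the angiopoietins, read 8.98, 9.14 and 8.95 against 8.67, 8.58 and 8.46. It fell by 0.45 ± 0.10, 1.37-fold (adjusted p = 0.0242), without overlap. Tie1, the related orphan receptor gene, gave −0.04 ± 0.13 (95% interval −0.35 to 0.26).

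For both subunits of the adrenomedullin receptor every knockout array lay below every wild-type array. Ramp2, the accessory subunit, read 9.24, 9.17 and 9.30 in wild type and 8.88, 8.63 and 8.82 in knockout. It fell by 0.46 ± 0.10, 1.37-fold (adjusted p = 0.0238). Calcrl, the receptor subunit, read 6.75, 6.99 and 6.40 against 6.20, 6.25 and 6.01, with no overlap. Its difference of −0.56 ± 0.15 missed the threshold narrowly (adjusted p = 0.0529). Without wild-type 3, the lowest wild-type array, the adjusted p was 0.0285, but it was up to 0.167 with another array left out. A second, dim Calcrl probe set, at 3.45 to 3.90, gave −0.29 ± 0.10 without overlap (adjusted p = 0.0921). The third stands in when sets that can match several transcripts are left out (adjusted p = 0.706). It read only 2.39 to 2.59 on all arrays, so little can be read from it. The TGF-beta family receptor genes of endothelium, Eng and Acvrl1, gave −0.06 ± 0.09 and −0.19 ± 0.11, neither past the threshold.

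The apelin receptor gene was the receptor with a positive difference. Aplnr, active in veins and sprouting vessels, read 9.95, 9.85 and 10.38 in wild type and 11.12, 10.31 and 11.22 in knockout. Knockout 2 lay within the wild-type range while knockout 1 and 3 lay above it. The difference of 0.82 ± 0.25 had an adjusted p of 0.0709, and 0.00787 without knockout 2 but up to 0.212 with another array left out. A second Aplnr probe set gave 0.85 ± 0.29 (adjusted p = 0.101).

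The 6 transcription factor genes all had a negative difference (Erg and Sox7 turned positive with array weights), with 0 past the threshold and 3 lower at an unadjusted p under 0.05. Erg, the ETS factor that keeps endothelial identity, gave −0.01 ± 0.13, and Sox7 gave −0.06 ± 0.15. Fli1, an ETS factor shared with blood cells, gave −0.39 ± 0.12 with no overlap. Its adjusted p was 0.0743, and 0.0465 without knockout 1 but up to 0.201 with another array left out. The differences of Sox17, Sox18 and Ets1 were −0.29 ± 0.14, −0.35 ± 0.14 and −0.32 ± 0.13, with adjusted p from 0.140 to 0.217.

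Nos3 had the smallest p of the 42 members. Its product makes the nitric oxide that relaxes vessels, and caveolins are known to bind and inhibit the enzyme. Wild-type arrays read 9.10, 9.25 and 9.42 and knockout arrays 8.60, 8.61 and 8.46. The lowest wild-type array was well above the highest knockout array. Nos3 fell by 0.70 ± 0.11, 1.63-fold (adjusted p = 0.00734). The 2 capillary genes beside it did not pass: Plvap, of the diaphragms of fenestrae and caveolae, gave −0.28 ± 0.11 (adjusted p = 0.143), and Gpihbp1, which holds lipoprotein lipase on the capillary wall, gave 0.26 ± 0.13 (adjusted p = 0.236).

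Of 4 leukocyte adhesion genes, whose products activated endothelium displays, 0 passed in either direction, and 1 was higher at an unadjusted p under 0.05. Vcam1, also made by stromal cells, read 8.38, 8.34 and 8.34 in wild type against 8.87, 8.47 and 8.88 in knockout, above wild type on all 3 arrays. The difference of 0.39 ± 0.12 had an adjusted p of 0.0841, and 0.0123 without knockout 2 but up to 0.238 with another array left out. Icam1 gave 0.24 ± 0.11 (adjusted p = 0.227). Selp, the gene of P-selectin, gave −0.10 ± 0.10. Both other Selp probe sets, which were dimmer, gave −0.39 ± 0.13 and −0.51 ± 0.20 without overlap (adjusted p = 0.0944 and 0.139). E-selectin (Sele) read 3.00 to 3.22 on all 6 arrays, at percentile 8.15 of all genes by mean level. No reading of Sele can be drawn from that level. It is inside the span of 2.04 to 6.16 covered by the means of 20 Y-linked probe sets, a rough mark of background on female arrays. The median of those means was 2.88, so the upper end of the span is a loose limit.

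**Figure D2:**
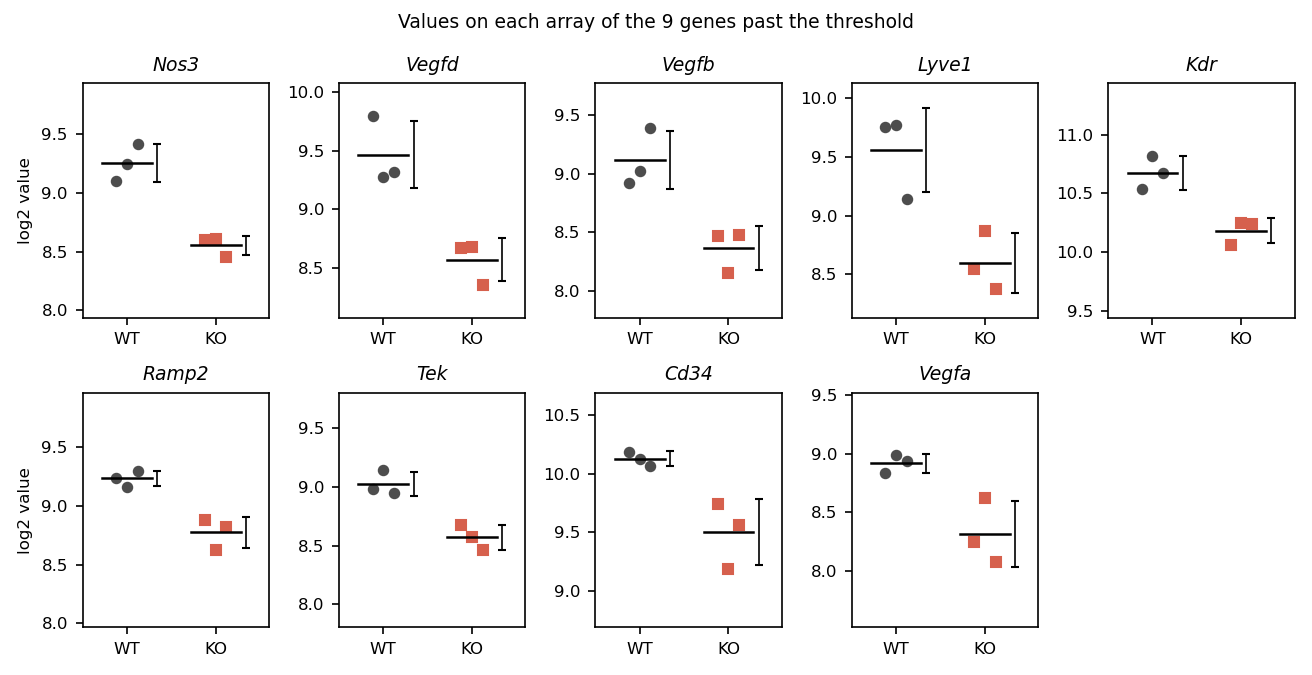
Log2 value on each array (vertical axis, each panel with its own range) of the 9 genes with an adjusted p under 0.05, for 3 wild-type (WT, circles) and 3 knockout (KO, squares) arrays. Horizontal lines are group means and bars are 1 SD. No panel has an overlap between the groups, and knockout 2 is the lowest knockout array for Cd34, Ramp2 and Vegfb.

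Of 4 lymphatic endothelial genes 1 fell, 0 rose and the median difference was −0.16. Lyve1, the hyaluronan receptor of lymphatic capillaries that some tissue macrophages also carry, read 9.76, 9.77 and 9.15 in wild type and 8.55, 8.87 and 8.37 in knockout. It fell by 0.96 ± 0.20, 1.95-fold (adjusted p = 0.0202). Its second probe set fell by 0.99 ± 0.16 (adjusted p = 0.00924). Flt4, the gene of VEGF receptor-3, read 7.74, 7.91 and 7.64 against 7.35, 7.37 and 7.53. The groups did not overlap, and the difference of −0.34 ± 0.10 had an adjusted p of 0.0717. The second Flt4 probe set gave 0.05 ± 0.09 at a lower level, 5.25 to 5.46, inside the span of the Y-linked probe sets. Prox1, the master regulator of lymphatic identity, read 3.72, 4.35 and 4.22 against 4.01, 4.22 and 4.13, at percentile 18.1 of all genes by mean level. The difference was 0.03 ± 0.16, at a level that the Y-linked probe sets also reach, so no lymphatic content can be read from it. Podoplanin (Pdpn), shared with fibroblasts and basal epithelium, read 9.19, 8.97 and 8.90 against 9.16, 8.93 and 9.50 and gave 0.18 ± 0.15.

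Macrophage markers stood beside Lyve1: 1 of 7 fell, the mannose receptor gene Mrc1, by 0.55 ± 0.13 (adjusted p = 0.0325), all 7 had negative differences with a median of −0.25, and the list mean was 8.93 to 9.31 in wild type and 8.77 to 8.91 in knockout. Their part in the Lyve1 result was not tested. Blood and lymphatic endothelium had 5 of 31 and 1 of 4 genes called lower, with medians of −0.10 and −0.16, and the difference between the classes was not tested.

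The 7 angiogenic factors split by direction, with 3 lower past the threshold and the 4 others positive by sign. Vegfa, the main driver of angiogenesis, read 8.83, 8.99 and 8.93 in wild type and 8.25, 8.62 and 8.08 in knockout. It fell by 0.60 ± 0.14, 1.52-fold (adjusted p = 0.0323). Its second probe set gave −0.24 ± 0.10 and did not pass. Vegfb, a ligand of VEGF receptor-1 active in fat, muscle and heart, read 8.92, 9.03 and 9.39 against 8.47, 8.15 and 8.48. It fell by 0.75 ± 0.15, 1.68-fold (adjusted p = 0.0185), without overlap.

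Vegfd and Vegfc, both lymphatic growth factor genes, had differences of opposite sign. Vegfd (Figf in older annotation) read 9.80, 9.28 and 9.32 in wild type and 8.67, 8.68 and 8.36 in knockout, and its groups did not overlap. It fell by 0.90 ± 0.16, 1.86-fold (adjusted p = 0.0130). Both other Vegfd probe sets fell too, by 1.09 ± 0.15 and 1.10 ± 0.13. Vegfc read 6.75, 6.92 and 6.73 against 7.34, 6.93 and 7.62, where knockout 2 was level with the highest wild-type array. The difference of 0.50 ± 0.17 had an adjusted p of 0.0983, and 0.0155 without knockout 2 but up to 0.247 with another array left out. A second Vegfc probe set rose by 0.62 ± 0.14 (adjusted p = 0.0253), while the third gave 0.42 ± 0.20.

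The angiopoietins and apelin had positive differences that did not pass. Angpt2, which loosens vessels and can block TIE2, read 7.29, 6.84 and 7.12 in wild type and 7.61, 7.31 and 7.86 in knockout. Every knockout array was above every wild-type array, and the difference was 0.51 ± 0.17. Its adjusted p was 0.0868, and 0.0347 without knockout 2 but up to 0.241 with another array left out. Apln, the apelin gene of sprouting tip cells, read 7.26, 7.71 and 7.46 against 7.72, 7.80 and 8.79, with knockout 3 the highest. Its difference of 0.63 ± 0.27 (adjusted p = 0.184) was 0.29 without knockout 3. Angpt1, the TIE2 agonist gene made by perivascular cells, was high on 1 array: it read 9.03 in knockout 2 against 7.25 and 7.48 in knockout 1 and 3 and 7.42 to 7.70 in wild type. Its difference of 0.33 ± 0.41 was −0.22 without knockout 2. The median of the 7 factors, 0.33, is the value of Angpt1 and turned with it to −0.22 without that array.

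**Figure D3:**
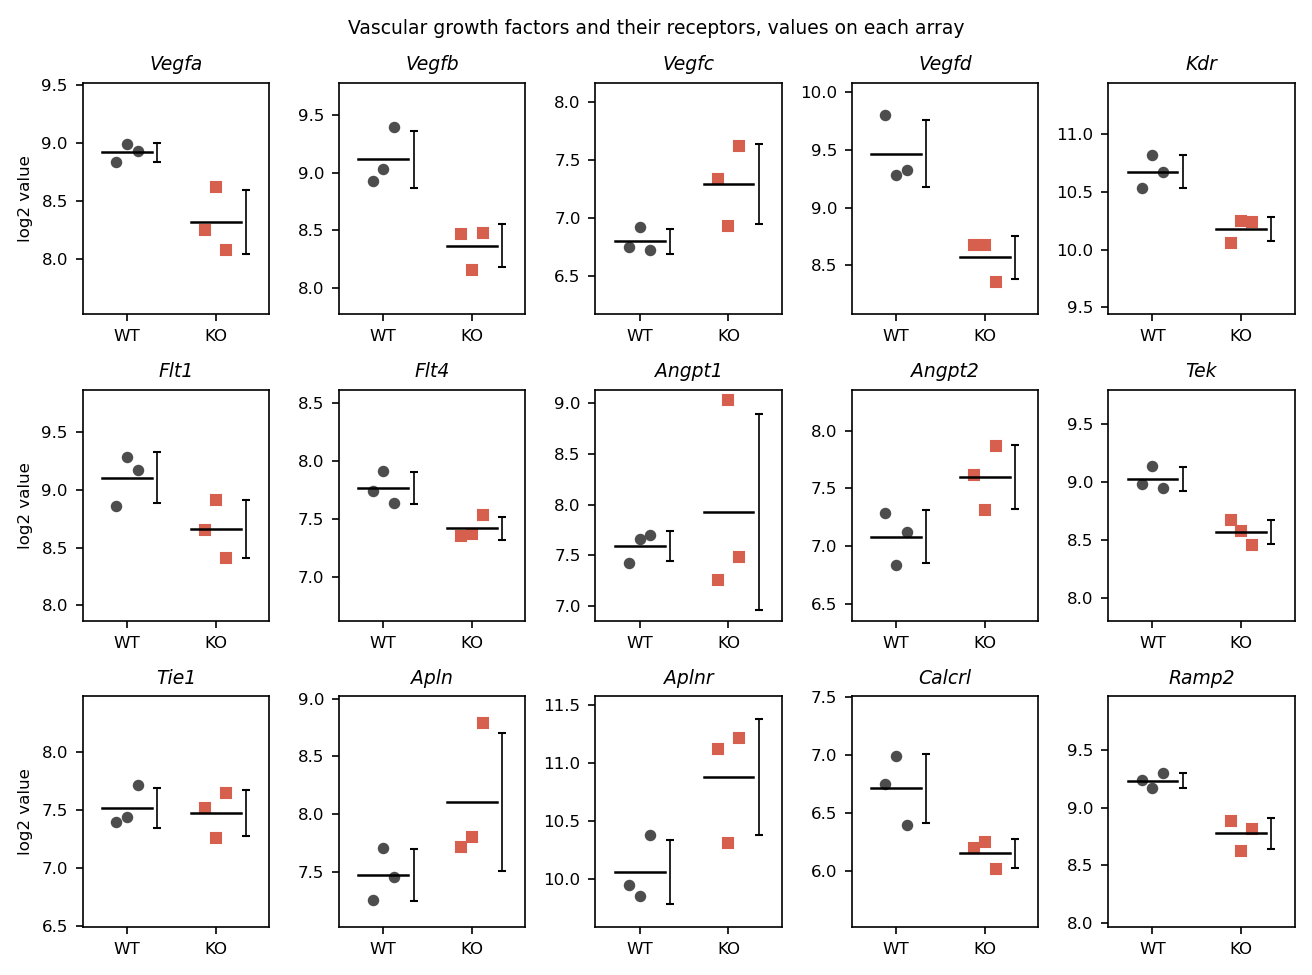
Log2 value on each array (vertical axis, each panel with its own range) of VEGF, angiopoietin and apelin genes and of receptor genes, for wild type (WT, circles) and knockout (KO, squares), with group means as lines and 1 SD as bars. Vegfa, Vegfb and Vegfd lie lower in the knockout without overlap, Vegfc and Angpt2 lie higher without overlap, and Angpt1 is set by knockout 2 at 9.03.

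Each of the 9 called genes stayed lower when any 1 array was left out, but most lost the call in some of those fits. Nos3 kept it in 6 of 6 (adjusted p from 0.0118 to 0.0350). Vegfd lost it without knockout 3 (0.0519), and Vegfb without wild-type 3 (0.0503) or knockout 3 (0.0522). Kdr lost it in 4 fits, where the array dropped was wild-type 2 (0.0733), wild-type 3 (0.0745), knockout 1 (0.0631) or knockout 3 (0.0659). Lyve1 lost it in 4 fits as well, at 0.0661 with wild-type 1 dropped, 0.0655 with wild-type 2, 0.0544 with knockout 1 and 0.0770 with knockout 3. Cd34, Tek and Ramp2 lost it without any 1 wild-type array or knockout 3, at adjusted p from 0.0524 to 0.0872. Vegfa kept it only without knockout 2 (0.00681), with 0.0686 to 0.0980 otherwise. The number of members called lower was 4, 3 and 4 on dropping wild-type 1, 2 and 3 in turn, and 7, 10 and 1 on dropping the knockout arrays in turn. Members called higher numbered 4 without knockout 2, where Aplnr, Vcam1, Vegfc and Angpt2 passed, and 0 in each of the other 5 fits. By exact two-sided permutation over the 6 arrays each of the 9 genes gave p = 0.1, the smallest that 3 against 3 arrays allow.

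A further 49 genes of vessel pathways were also chosen by name with earlier results of these data known. Of them, 9 were lower and 2 higher (18.4% and 4.08%), where 8.51% and 7.65% of all genes were. Their median difference was −0.32, against −0.01 over all genes. Hey1, a Notch target and arterial transcription factor gene also active outside vessels, read 9.73, 9.56 and 9.11 in wild type and 7.45, 7.76 and 7.31 in knockout. The gap between the groups exceeded 1 log2 unit, and Hey1 fell by 1.96 ± 0.18, 3.89-fold (adjusted p = 0.00131). Tfpi, the tissue factor pathway inhibitor gene, fell by 0.70 ± 0.12, and Thbd, the thrombomodulin gene, by 0.77 ± 0.15. Procr, the gene of the endothelial protein C receptor, gave −0.41 ± 0.13 and did not pass (adjusted p = 0.0782). Id1, a target of bone morphogenetic protein signalling, fell by 0.67 ± 0.11, and Gata2, an endothelial and blood transcription factor gene, by 0.65 ± 0.13. The others that fell were Ednrb, Ccbe1, Lpl and Tal1, by 0.33 to 0.98. The 2 genes that rose were Thbs1, the antiangiogenic thrombospondin-1 gene, by 2.14 ± 0.33 (adjusted p = 0.00733), and Cldn5, the tight junction gene of endothelium, by 0.97 ± 0.18. Thbs1 read 4.88, 4.59 and 4.71 in wild type, inside the span of the Y-linked probe sets, against 7.62, 6.11 and 6.86 in knockout. The size of its rise thus rests on a group that may not be above background. Tal1 lay inside the same span on all 6 arrays, and so did the knockout means of Ccbe1 and Id1. Cldn5 read 8.33, 8.65 and 8.76 in wild type against 9.53, 9.25 and 9.89 in knockout, while the junction genes Cdh5 and Esam overlapped. Leaving out 1 array gave 4 to 10 lower and 2 to 4 higher among the 49, with 5 lower without wild-type 3, 4 lower without knockout 3 and 4 higher without knockout 2.

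Marker RNA of several other cell types differed between the groups in the whole gland. All 6 measured white adipocyte markers had negative differences, 4 of them past the threshold, and their mean was 11.47 to 11.61 in wild type and 10.66 to 11.03 in knockout. The B and T cell list, which a lymph node in the tissue would supply, fell in 4 of 5 measured markers, from 7.995 to 8.34 in wild type to 7.28 to 7.50 in knockout. Luminal epithelial markers rose in 7 of 7, from 9.61 to 10.21 up to 11.24 to 11.35, and basal markers in 4 of 5. Of 10 genes of pericytes and vascular smooth muscle, 4 fell and 2 rose. Those that fell were the pericyte proteoglycan gene Cspg4, by 0.98 ± 0.15, the intermediate filament gene Des, by 0.74 ± 0.13, and the potassium channel subunit genes Kcnj8 and Abcc9, by 0.84 ± 0.16 and 0.57 ± 0.14. Myh11 and Tagln, shared with myoepithelium, rose by 0.53 ± 0.11 and 0.77 ± 0.18, and the pericyte gene Rgs5 gave −0.02 ± 0.09. Fibroblast markers were lower in 1 of 7 (Dpt), and platelet markers in 1 of 4 (Pf4). Platelets share Pecam1, Selp and Vwf with endothelium, and those genes are not in the platelet list. The part of each of these cell types in the results for vessel genes was not tested.

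Skeletal muscle RNA varied between arrays, with a list mean of 8.68, 10.44 and 5.91 in wild-type 1 to 3 and of 5.33, 7.23 and 7.99 in knockout 1 to 3, and 0 of 7 muscle markers passed (0 also at an unadjusted p under 0.05). With that mean as a covariate in limma, Nos3, Ramp2, Lyve1, Vegfb and Vegfd kept their calls, and Cd34, Kdr, Tek and Vegfa gave adjusted p from 0.0580 to 0.0744 with negative differences.

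**Figure D4:**
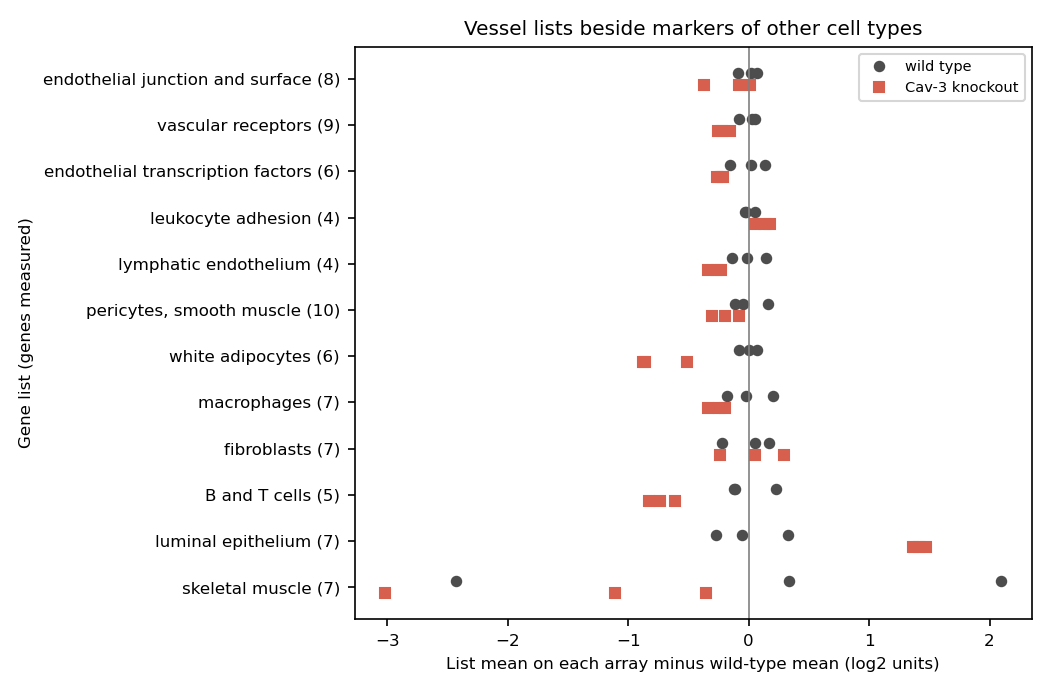
Mean log2 value of each gene list on each array minus its wild-type mean (horizontal axis, log2 units), for 3 wild-type (circles) and 3 knockout (squares) arrays, with the number of measured genes in brackets. Vessel lists shift by less than 0.4, the luminal list lies more than 1 unit higher in the knockout, adipocyte and lymphocyte lists lie lower, and skeletal muscle spreads widely in both groups.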

How the data were processed

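Messenger RNA of 6 glands, 3 per genotype as given by the sample titles, was read on Affymetrix arrays. The authors deposited 1 log2 value per probe set and array, made with RMA per the submitters' processing notes, and the sources used here give no version. RMA corrects background, quantile normalizes arrays and summarises probes, so a shift of most transcripts would be removed and folds of dim sets are compressed. The number of arrays limits the precision. No scan or hybridisation batch was used, since the labels and tables read here name none.

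Of 45101 probe sets, 64 controls were left out and 45037 tested with no filter on dim sets. Platform annotation gave 34945 sets 1 symbol, 932 several and 9160 none. Older symbols were replaced by Entrez identifier from RefSeq (GRCm38.p6), and 204 sets had no match. Named sets covered 18193 genes. Some marker genes, Plin1, Cfd, Gp1ba, Lck and Hbb-b1 among them, had no set of their own and are not analysed here, which left 2 erythroid markers, neither called.

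The 2 genotypes entered limma 3.58.1 (R 4.3.3; lmFit, eBayes, two-sided, genotype as the only term), with Benjamini-Hochberg adjustment over all probe sets. The fit was tested on simulated data. Members, lists and the rule for naming genes were chosen with earlier results of these data known. Arrays are given singly for members past adjusted p 0.05, for those with groups apart and a difference of at least 0.5, and for defining markers, and for some further members singled out after their values were seen. At most 5 other pathway or marker genes with the smallest p are named per list and direction, beside exceptions chosen after their values were seen. Alternatives were other normalizations, array weights, another variance prior, a filter on dim sets, leaving out each array, the replicate number as a block, averaged or fewer probe sets, a muscle covariate and other thresholds. Figures were drawn with matplotlib 3.10.9.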

Additional observations from a re-analysis of the deposited data

How the results depend on the processing

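Of the 9 genes called lower, 9 kept their direction and call with quantile normalization again, cyclic loess, median centring, dim probe sets left out, another variance prior and array weights. Averaging probe sets cost Vegfa its call (adjusted p = 0.0532), and Vegfb has no probe set left without those that can match several transcripts. The cause of a lost call was not tested. The number of members lower was 1 at a threshold of 0.01 and 5 with the muscle covariate, and 1 to 10 with 1 array left out. Members higher numbered 4 at a threshold of 0.1, 3 with array weights and 0 to 4 with 1 array left out. Their median difference was −0.14 without dim sets and −0.18 to −0.087 with 1 array left out. For blood endothelium the number lower was 1 at 0.01, 2 with the muscle covariate and 1 to 6 with 1 array left out, the number higher was 2 at 0.1, 2 with array weights and 0 to 2 with 1 array left out, and the median was −0.21 to −0.068 with 1 array left out. For lymphatic endothelium the number lower was 0 at 0.01, 2 at 0.1, 2 with quantile normalization again and 0 to 1 with 1 array left out, and the median was −0.34 without dim sets, 0.0046 with averaged probe sets, −0.099 with the muscle covariate and −0.26 (without wild-type 1) to −0.059 (without wild-type 2) with 1 array left out. For angiogenic factors the number lower was 0 at 0.01 and 0 to 3 with 1 array left out, the number higher was 2 at 0.1, 1 with array weights and 0 to 2 with 1 array left out, and the median was 0.15 with array weights, 0.41 with the muscle covariate, 0.41 without probe sets of several transcripts and −0.22 to 0.48 with 1 array left out. For the 49 pathway genes the number lower was 1 at 0.01, 16 at 0.1, 14 with averaged probe sets and 4 to 10 with 1 array left out, the number higher was 1 at 0.01, 5 at 0.1 and 2 to 4 with 1 array left out, and the median was −0.22 without dim sets, −0.26 with averaged probe sets, −0.25 without probe sets of several transcripts and −0.33 to −0.21 with 1 array left out.

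Differences near 0 turned sign. With array weights Cdh5, Esam, Icam2, Tie1, Erg and Sox7 gave 0.0068, 0.036, 0.088, 0.017, 0.056 and 0.0093. With the muscle covariate Cdh5, Icam2, Erg and Sele gave 0.00093, 0.0019, 0.021 and 0.014. Esam gave 0.0017 with median centring. Cdh5 gave 0.16 with averaged probe sets, where its second, dim probe set (0.35 ± 0.13) enters the mean. With 1 array left out Cdh5 gave −0.10 to 0.035, Esam −0.067 to 0.057, Icam2 −0.22 to 0.10, Robo4 −0.16 to 0.0052, Tie1 −0.13 to 0.065, Erg −0.14 to 0.072, Sox7 −0.21 to 0.030, Vwf −0.11 to 0.083, Sele −0.091 to 0.016, Prox1 −0.16 to 0.15 and Angpt1 −0.22 to 0.67.

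The labels give same-numbered arrays of the 2 genotypes no link beyond the number. Deviations of such arrays from group means correlated at −0.05, 0.19 and −0.02, and wild-type 3 correlated best with knockout 1 (0.26). With 3 arrays per genotype these values cannot settle whether same-numbered arrays shared a batch. With the replicate number as a block, 10 members were lower and 2 higher, 1 of the higher in blood endothelium and 1 among angiogenic factors, and 4 of the 49 pathway genes were higher.

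Signal limits Sele, Prox1 and Tal1 on all arrays, Thbs1 in wild type, and Calcrl, Ccbe1 and Id1 in the knockout, whose values or means lie at or below 6.16, the highest mean of the Y-linked probe sets. The number of arrays, 3 per genotype, limits all results.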

Other observations

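Knockout 2 differed from knockout 1 and 3 in several growth factor and receptor genes, singled out after their values were seen. Aplnr, Vegfc, Vcam1 and Icam1 read 10.31, 6.93, 8.47 and 8.43 there, each the knockout value nearest to wild type, while Angpt1 read 9.03, its highest value on the 6 arrays. The milk protein gene Wap read 12.48 in knockout 2, against 8.43 and 10.19 in knockout 1 and 3. In wild-type 1 to 3 Wap read 5.56, 9.50 and 5.79. Lalba, the gene of alpha-lactalbumin, read 12.68 in knockout 2, against 7.78 and 9.19 in knockout 1 and 3. In wild-type 1 to 3 Lalba read 8.49, 10.02 and 8.41, so replicate 2 was the highest array of each genotype for both genes. Neither Wap nor Lalba passed the test between genotypes (adjusted p = 0.118 and 0.663).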
